A study of Saccharomyces cerevisiae with 8 samples.

Results

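Translation factors are the proteins that load the ribosome on an mRNA, move it along and release it. The genes described here are the initiation, elongation, termination and recycling factor genes of the budding yeast Saccharomyces cerevisiae, listed by systematic name under a rule that uses no measured value, although the list was drawn up with earlier results of these data known. Of 46 genes in that list, 45 were in the table of 11993 features, and all 45 passed the filter on low values. NEW1 is not analysed here. By step of translation, 28 act in initiation, 11 in elongation, and 5 in termination, recycling or ribosome rescue, and STM1, which preserves idle ribosomes, stands alone.

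Groups are written as strain and treatment, such as WT-DMSO. The cells were strain BY4741, a haploid laboratory strain, grown in the rich medium YPD at 30 °C to an optical density (OD600) of 0.5. All cells carried his3Δ1, leu2Δ0, met15Δ0 and ura3Δ0, and the mutant carried upf1*::kanMX4 as well. Cells with UPF1 intact (wild type, WT) or mutant (upf1) each received cycloheximide (CHX) at 100 µg/ml, or its solvent dimethyl sulfoxide (DMSO), for 15 min, with 2 replicates in each of the 4 groups and 8 libraries in all. CHX stops translation elongation on the ribosome, and Upf1 is an RNA helicase required for nonsense-mediated decay (NMD), the pathway that degrades mRNAs on which translation ends early. The series design calls the replicates biological, while the sources used here do not give the number of clones.

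In initiation, eIF4F (the cap-binding eIF4E, the scaffold eIF4G and the helicase eIF4A) prepares the mRNA, eIF2 brings the initiator tRNA as a complex with GTP, eIF2B recharges eIF2, and eIF3, eIF1, eIF1A, eIF5 and eIF5B serve scanning and subunit joining. In elongation, eEF1A delivers aminoacyl-tRNAs, eEF1B recharges eEF1A, eEF2 moves the ribosome by a codon, eEF3 is an ATPase found in fungi that helps to clear the exit site, and eIF5A relieves poor peptide bond formation. The release factors eRF1 and eRF3 end translation, Rli1 splits the ribosome, and Dom34 with Hbs1 frees stalled ribosomes. Several of these proteins are encoded by pairs of genes.

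For each library the deposited table gives a read density, the reads of a gene divided by its length and by a factor for that library. Recovered reads summed over the features of the table were 9.10 M to 25.66 M per library (M for 1e+06), and the 45 genes had 82 to 278734 reads each per library. The factors match a scaling on snoRNAs, the small nucleolar RNAs that guide rRNA modification, within 0.4%. A density on this deposited scale is therefore a level against snoRNAs, and a change of snoRNA abundance and an opposite change of all mRNAs cannot be told apart. The densities of NAM7, the UPF1 gene, were 0.533 and 0.588 in WT-DMSO and 0.0216 and 0.0239 in upf1-DMSO, as the labels say. STE2, the receptor gene of mating type a, had densities of 3.25 to 14.5, while LEU2 and URA3, which BY4741 lacks, had at most 2 reads in any library.

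Sequences of the gene pairs and of a few upstream windows are given first, because they set what can be compared. All are from the RefSeq copy of build R64, 5′ to 3′ on the gene's strand. TEF1 and TEF2, which both encode eEF1A, differ at 2 of 1377 coding bases and encode the same protein. The stretch below, coding bases 703 to 762, holds 1 of these differences, in capitals.

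TEF1 (YPR080W), chrXVI:701296-701355, + strand: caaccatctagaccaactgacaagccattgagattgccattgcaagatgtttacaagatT

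TEF2 (YBR118W), chrII:478373-478432, + strand: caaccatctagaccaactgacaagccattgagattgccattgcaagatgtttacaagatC

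Of the 50-base windows of either coding sequence, 92.5% occur unchanged in the other. The same share was 91.9% for EFT1 and EFT2, which encode eEF2, and 84.9% for TIF1 and TIF2, which encode eIF4A. Each of these pairs encodes proteins that are 100.0% identical. The sources used here do not say how reads that match both genes were counted, so the separate values of TEF1 and TEF2, EFT1 and EFT2, and TIF1 and TIF2 are uncertain.

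The other pairs share no 50-base window. Their longest shared run is 43 bases in HYP2 and ANB1, 41 in YEF3 and HEF3, 35 in TEF4 and CAM1, and 15 in DED1 and DBP1. Read length is not known here, so reads no longer than these runs could match both genes. YEF3 and HEF3 encode eEF3 proteins that are 83.8% identical, with 798 differences in 3135 coding bases. Coding bases 612 to 671 hold 15 of them, in capitals.

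YEF3 (YLR249W), chrXII:637391-637450, + strand: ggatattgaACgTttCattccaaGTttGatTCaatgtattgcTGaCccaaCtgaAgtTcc

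HEF3 (YNL014W), chrXIV:606930-606989, + strand: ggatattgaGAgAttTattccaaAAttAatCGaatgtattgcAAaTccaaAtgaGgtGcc

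HYP2 and ANB1 encode eIF5A proteins that are 90.4% identical, with 43 differences in 474 coding bases. Coding bases 147 to 206 hold 5 of them, in capitals.

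HYP2 (YEL034W), chrV:85822-85881, + strand: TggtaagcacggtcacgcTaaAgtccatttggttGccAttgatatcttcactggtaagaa

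ANB1 (YJR047C), chrX:525176-525235, - strand: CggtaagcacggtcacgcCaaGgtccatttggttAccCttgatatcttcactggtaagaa

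ANB1 is the hypoxic eIF5A gene, kept low in air by the repressor Rox1. Within the 500 bases before its start codon the Rox1 core ATTGTTC, searched on both strands, occurs 3 times. Each match is shown in capitals in a 30-base window, at 312, 281 and 214 bases before the start codon.

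ANB1 (YJR047C), chrX:525675-525704, - strand: ttcgtttttccATTGTTCgttcgttgcctg

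ANB1 (YJR047C), chrX:525644-525673, - strand: tttttcgccctATTGTTCtcgagcctaaaa

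ANB1 (YJR047C), chrX:525577-525606, - strand: tttcctattccATTGTTCtctttggtaaac

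The core was found before 5 of the 45 genes (11.1%) and before 11.8% of 6019 protein-coding genes. The letters AAAATTTT, the RRPE element known from ribosome biogenesis genes and the same on both strands, were found before 26 of the 45 (57.8%) and before 12.4% of the 6019. By step they were found before 14 of 28 initiation genes, 8 of 11 elongation genes and 4 of 5 termination to rescue genes. They stood before all 3 genes of eIF2 and both release factor genes, and before 1 of 5 eIF2B genes, GCD1. Windows of the eIF2 and release factor genes are shown because every gene of these 2 complexes has a match, at 212, 147, 135, 168 and 157 bases before the start codon.

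SUI2 (YJR007W), chrX:450797-450826, + strand: gcagtcggagaAAAATTTTttcttcgaaga

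SUI3 (YPL237W), chrXVI:100338-100367, + strand: cgacggagtgaAAAATTTTgtaattgcgag

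GCD11 (YER025W), chrV:205105-205134, + strand: ttgccattgaaAAAATTTTcatagaatagc

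SUP45 (YBR143C), chrII:532332-532361, - strand: accctgaatgaAAAATTTTttcagaaatcc

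SUP35 (YDR172W), chrIV:808156-808185, + strand: tctttatggagAAAATTTTtttttcactcg

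The PAC element GATGAG was found before 31.1% of the 45 genes and 28.2% of all. The Rap1 core ACCCANACA was found before 3 of the 45 (6.7%), TEF2, TEF4 and EAP1, and before 3.1% of all. A match is a description of the letters and not of a bound site.

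The 45 genes spanned more than 3 orders of density. In WT-DMSO the median of the 45 mean densities was 2.21 against 0.210 for all protein-coding genes, and 41 of 45 lay above the protein-coding median. The elongation genes YEF3 and HYP2 stood highest, at ranks 14 and 22 among protein-coding genes, with mean densities of 39.6 ± 2.48 and 35.1 ± 2.57 (SD, n = 2). TEF2 and TEF1 followed at 29.3 ± 1.73 and 29.3 ± 1.33, and these 2 do not differ beyond their spread. EFB1 (eEF1B alpha) at 14.8 ± 1.29 and TEF4 (eEF1B gamma) at 14.2 ± 0.982 also overlapped.

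Among the initiation genes the highest in WT-DMSO were PAB1, the poly(A)-binding protein gene, at 6.03 ± 0.477, TIF1 at 5.44 ± 0.203 and SUI1, the eIF1 gene, at 5.37 ± 0.350. The 3 genes of eIF2 had mean densities close together, of 3.23 (SUI3, beta), 2.51 (GCD11, gamma) and 2.21 (SUI2, alpha). The 5 genes of eIF2B were lower than every gene of eIF2, from 0.404 (GCD2, delta) to 0.848 (GCD7, beta). The 6 genes of eIF3 lay between 1.40 (HCR1, eIF3j, and RPG1, eIF3a) and 2.45 (TIF34, eIF3i).

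In termination, SUP45 (eRF1) had a mean density of 2.54 and SUP35 (eRF3) of 1.35. RLI1 had 1.49, and the rescue genes HBS1 and DOM34 had 0.340 and 0.313. The lowest genes were TIF4632, which encodes the minor eIF4G, at 0.303, EAP1, an eIF4E-binding repressor gene, at 0.204, ANB1 at 0.131, DBP1, a helicase paralog of DED1, at 0.0455, and HEF3 at 0.0245. The lengths used in the table include untranslated parts for most genes but equal the coding length for HYP2 (474 nt) and DED1 (1815 nt), which limits comparisons of levels between genes.

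**Figure D1:**
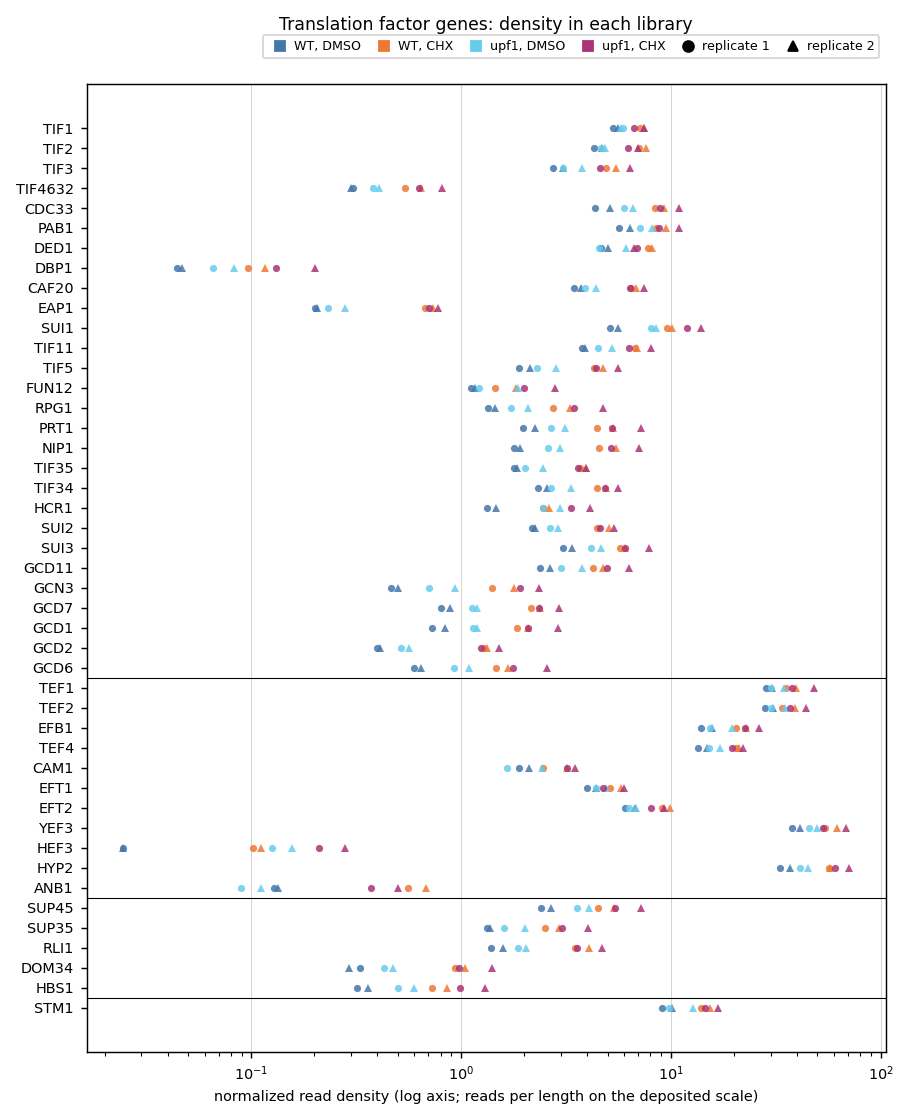
Normalized read density (log axis, deposited scale) of the 45 genes in each of 8 libraries, circles for replicate 1 and triangles for replicate 2, colours for the 4 groups, and lines between the steps of translation. YEF3, HYP2, TEF1 and TEF2 lie highest, and HEF3, DBP1 and ANB1 lowest; the WT-DMSO libraries lie left of the CHX libraries in every row.

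The share of the mRNA pool does not depend on the scale. The 45 genes took 4.02% and 4.01% of the summed protein-coding density in WT-DMSO, 3.20% and 3.32% in WT-CHX, 3.95% and 3.92% in upf1-DMSO, and 3.14% and 3.24% in upf1-CHX. All 4 CHX libraries thus lay below all 4 DMSO libraries. The elongation genes carried most of this: their share was 2.73% and 2.72% in WT-DMSO, 1.99% and 2.06% in WT-CHX, 2.61% and 2.56% in upf1-DMSO, and 1.94% and 1.98% in upf1-CHX.

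The 28 initiation genes held nearly the same share throughout, with means of 1.04% in WT-DMSO, 1.01% in WT-CHX, 1.10% in upf1-DMSO and 0.999% in upf1-CHX. The 5 termination to rescue genes went the other way by their means, from 0.0939% to 0.107% with CHX in WT and from 0.109% to 0.117% in upf1. In upf1 this rise rested mostly on upf1-CHX replicate 2. The shares were 0.1092% and 0.1094% in upf1-DMSO and 0.1098% and 0.123% in upf1-CHX. With 2 libraries against 2, the exact two-sided permutation test cannot go below p = 0.333, which it gave for each of these CHX comparisons.

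**Figure D2:**
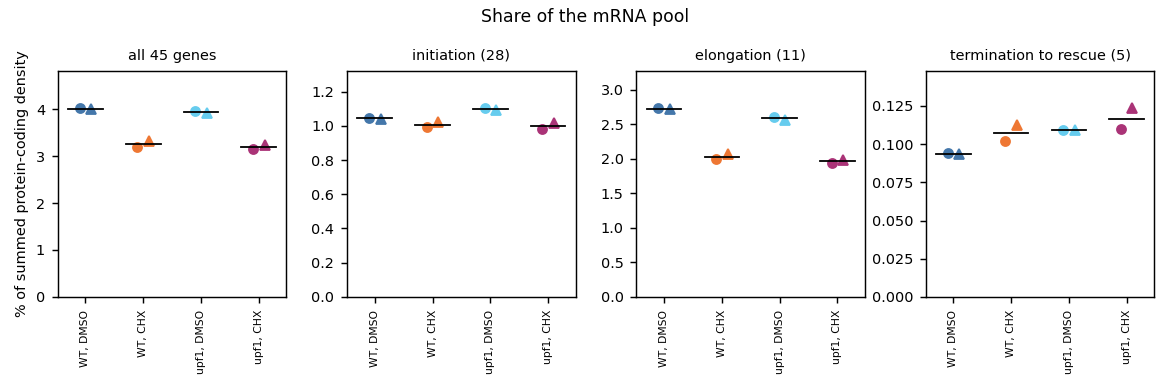
Share of summed protein-coding density taken by all 45 genes and by each step, in percent, for each library (circle, replicate 1; triangle, replicate 2) with the group mean as a bar. The elongation share is 2.56 to 2.73% in the DMSO libraries and 1.94 to 2.06% in the CHX libraries, while the initiation share stays between 0.982 and 1.10%.

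Because the direction of a change depends on what it is set against, each comparison is given on 3 scales: the deposited one, one relative to the median mRNA (each library divided by its median ratio, taken across 5817 protein-coding genes), and one relative to the summed mRNA (equal summed protein-coding density). Log2 changes are of density plus a pseudocount of 0.00549, with the standard error (SE) of the model, and understate changes of low genes. A gene is called higher or lower when limma's moderated test, adjusted over all 11700 features tested (Benjamini-Hochberg), gave a value under 0.05.

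The first comparison asks how 15 min of CHX changed these mRNAs in WT. On the deposited scale all 45 genes rose, by a median log2 change of 0.90, but 97.7% of protein-coding genes (95.0% of all features) were called higher as well, with a median of 1.55. Relative to the median mRNA, 34 of 45 fell and 3 rose, with a median of -0.64, where 30.7% of protein-coding genes (18.9% of all features) were called lower and 34.9% (44.1%) higher. Relative to the summed mRNA, 14 fell and 15 rose, with a median of -0.04, against 6.46% of protein-coding genes called lower and 71.5% higher. The protein-coding median was 1.55, 0.07 and 0.64 in this order, above the median of the 45 genes. The scales differ by a factor per library, so this order of the medians is the same on each by construction.

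The 9 elongation genes other than HEF3 and ANB1 fell relative to the median mRNA, with a median log2 change of -0.99, and also fell relative to the summed mRNA, with a median of -0.39. The lowest change was that of TEF2. Its density was 28.1 and 30.6 in WT-DMSO and 33.9 and 39.0 in WT-CHX, a log2 difference of -1.23 (SE 0.07; limma adjusted p = 3.1e-05) relative to the median mRNA and -0.63 relative to the summed mRNA, but 0.31 (limma adjusted p = 0.0428) on the deposited scale. Both CHX libraries were above both DMSO libraries, by less than most mRNAs. TEF1 was next at -1.19, and EFT1, EFT2, YEF3, HYP2, EFB1, TEF4 and CAM1 had changes between -1.16 and -0.84 relative to the median mRNA.

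Initiation genes had a median of -0.59 relative to the median mRNA, with 20 of 28 lower and 1 higher. Relative to the summed mRNA 4 were lower and 10 higher, where 71.5% of protein-coding genes were called higher. The initiation genes differed by complex. In eIF4F and its partners 7 of 8 fell (median -0.76), led by TIF1 at -1.11 and PAB1 at -0.96, and CDC33, the eIF4E gene, was at -0.64 (SE 0.07). All 4 genes of eIF1, eIF1A, eIF5 and eIF5B fell, from FUN12 (eIF5B) at -1.02 to TIF5 (eIF5) at -0.36, as did all 3 genes of eIF2 (median -0.67).

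Of the 6 eIF3 genes 5 fell, from HCR1 at -0.67 to PRT1 (eIF3b) at -0.33, and NIP1 (eIF3c) was at -0.10 (SE 0.08) and was not called. Limma called 0 of the 5 eIF2B genes relative to the median mRNA, and 3 had an unadjusted p under 0.05 (lowest adjusted p 0.0618), while limma's voom on the recovered reads called 2 of them lower, GCD1 and GCD6. They ranged from -0.21 (GCD1, gamma) to 0.17 (GCN3, alpha). All 5 eIF2B genes rose relative to the summed mRNA, where 71.5% of protein-coding genes were called higher. Their median of 0.48 was below the protein-coding median on that scale. GCN3 density went from 0.465 and 0.504 to 1.40 and 1.79, the largest rise of an eIF2B gene on the deposited scale.

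Among termination to rescue genes SUP45 (-0.58), SUP35 (-0.53), HBS1 (-0.31) and RLI1 (-0.19) fell relative to the median mRNA, and DOM34 at 0.13 (SE 0.10) was not called. The RLI1 call was at the threshold (limma adjusted p = 0.0497) and was lost without any single one of the 8 libraries (0.0514 to 0.242). HBS1, RLI1 and DOM34 rose instead relative to the summed mRNA, where 71.5% of protein-coding genes were called higher, and neither release factor gene was called. STM1 fell on both mRNA scales, by 0.93 relative to the median mRNA.

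EAP1, HEF3 and ANB1 rose on all 3 scales. ANB1 had the highest change of the 45, with densities of 0.128 and 0.135 in WT-DMSO and 0.562 and 0.680 in WT-CHX. That is a log2 difference of 0.68 (SE 0.10; limma adjusted p = 0.000726) relative to the median mRNA and 2.19 on the deposited scale. HEF3 went from 0.0245 and 0.0246 to 0.102 and 0.111, a log2 change of 0.53 (SE 0.12) relative to the median mRNA. EAP1 went from 0.202 and 0.205 to 0.671 and 0.733, a log2 difference of 0.24 (SE 0.08; limma adjusted p = 0.0279), while CAF20, the other eIF4E-binding repressor gene, changed by -0.65. The EAP1 call relative to the median mRNA was lost without any single one of the 4 WT libraries, with limma adjusted p-values of 0.0668 to 0.118.

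**Figure D3:**
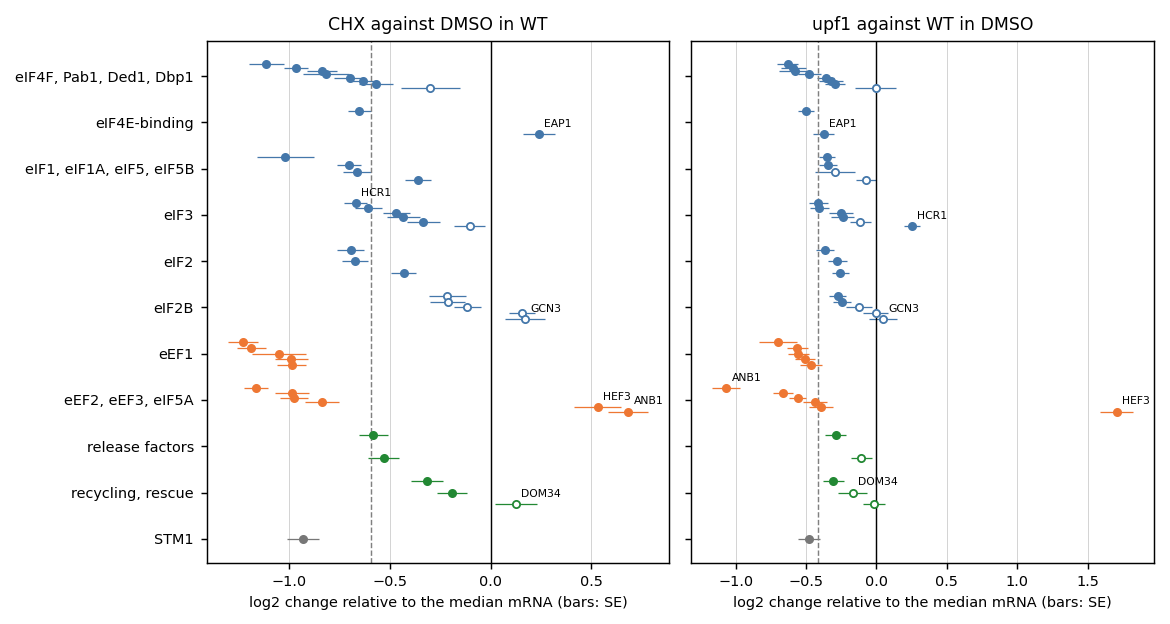
Log2 change relative to the median mRNA, with SE bars, of each of the 45 genes by complex, for CHX against DMSO in WT (left) and upf1 against WT in DMSO (right); filled points were called by limma, and the dashed line is the zero of the scale relative to the summed mRNA. The eEF1 genes lie between -1.23 and -0.99 and the eIF2B genes between -0.21 and 0.17 on the left; HEF3 stands at 1.71 and ANB1 at -1.07 on the right.

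In upf1 cells CHX gave a like order. On the deposited scale 43 of 45 rose (median 0.74), with EFT1 at 0.20 and TIF1 at 0.26 not called, against 95.5% of protein-coding genes (89.0% of all features). Relative to the median mRNA 31 fell and 2 rose, with a median of -0.47, where 28.8% of protein-coding genes (21.4% of all features) were called lower and 22.1% (16.1%) higher. Relative to the summed mRNA 16 fell and 9 rose, against 7.24% lower and 50.4% higher.

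The lowest change relative to the median mRNA was that of EFT1, one of the eEF2 genes. Its density was 4.39 and 4.90 in upf1-DMSO and 4.74 and 5.97 in upf1-CHX, and the groups overlapped on the deposited scale. The log2 change was -1.02 (SE 0.06, limma adjusted p = 8.3e-05). The highest was again ANB1, with 0.0894 and 0.111 in upf1-DMSO and 0.371 and 0.500 in upf1-CHX, a change of 0.86 (SE 0.10, limma adjusted p = 0.000651). EAP1, the other gene that rose, was at 0.32 (SE 0.08). Its call was lost without upf1-CHX replicate 1 or upf1-DMSO replicate 1, with limma adjusted p-values of 0.0883 and 0.0684.

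By step, 10 of 11 elongation genes, 18 of 28 initiation genes and 2 of 5 termination to rescue genes fell relative to the median mRNA, the last being SUP45 and SUP35. Limma called 0 of the 5 eIF2B genes, and 0 had an unadjusted p under 0.05; they ranged from -0.14 (GCD1) to 0.16 (GCN3). HEF3, which rose with CHX in WT, was among the genes that fell, at -0.40 (SE 0.12, limma adjusted p = 0.0284), and was at -0.03 and not called relative to the summed mRNA. The HEF3 call was also lost without any single one of the 4 upf1 libraries, with limma adjusted p-values of 0.0643 to 0.138.

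The next comparison sets upf1 against WT without CHX. It uses the same WT-DMSO libraries as the comparison of CHX in WT, so the 2 sets of values are not independent. On the deposited scale 22 of 45 rose and none fell (median 0.355), against 66.7% of protein-coding genes (62.0% of all features) called higher. Relative to the median mRNA 33 fell and 2 rose (median -0.34), where 31.4% of protein-coding genes (20.7% of all features) were called lower and 23.3% (31.1%) higher. Relative to the summed mRNA 3 fell and 9 rose (median 0.07), against 4.04% lower and 50% higher.

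The 22 on the deposited scale became 4 without WT-DMSO replicate 1, 12 without WT-DMSO replicate 2 and 3 without upf1-DMSO replicate 2. The 33 that fell relative to the median mRNA stayed between 25 and 33 when a library was left out.

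HEF3 changed most of the 45. Its densities were 0.0245 and 0.0246 in WT-DMSO, from 85 reads in replicate 1, and 0.125 and 0.157 in upf1-DMSO. Both upf1 libraries were above both WT libraries. The log2 change was 1.71 (SE 0.12, limma adjusted p = 2.1e-05) relative to the median mRNA, 2.07 relative to the summed mRNA and 2.28 on the deposited scale, so HEF3 rose on all 3 scales. HCR1, the eIF3j gene, was the other gene that rose on all 3. Its densities were 1.32 and 1.47 in WT-DMSO and 2.47 and 2.96 in upf1-DMSO, a log2 difference of 0.25 (SE 0.06; limma adjusted p = 0.00755) relative to the median mRNA. Without WT-DMSO replicate 1 the limma adjusted p of HCR1 was 0.0614.

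ANB1 had the lowest change. With densities of 0.128 and 0.135 in WT-DMSO against 0.0894 and 0.111 in upf1-DMSO, it was lower by a log2 difference of -1.07 (SE 0.10; limma adjusted p = 9.4e-05) relative to the median mRNA and -0.66 relative to the summed mRNA. The change was -0.38 on the deposited scale and was not called. EFT2 and TIF2 were the other genes that fell on both mRNA scales.

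All 5 eEF1 genes fell relative to the median mRNA (median -0.56) and none was called relative to the summed mRNA. In initiation 20 of 28 fell relative to the median mRNA, CAF20 at -0.50 and EAP1 at -0.38 among them, and SUI1 was at -0.07 (SE 0.07) and not called. Of the eIF2B genes GCD2 (-0.28) and GCD7 (-0.25) fell. In termination to rescue RLI1 (-0.31) and SUP35 (-0.29) fell, and SUP45, HBS1 and DOM34 were not called. Relative to the summed mRNA, SUI1, GCD1, GCD6, GCN3, NIP1, SUP45 and HBS1 rose with HCR1 and HEF3.

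The next comparison sets upf1 against WT in the presence of CHX. The genes that rose on the deposited scale were 3 of 45, HEF3, HCR1 and SUI1, and none fell, against 19.8% of protein-coding genes (16.5% of all features) called higher. Against the median mRNA 19 fell and HEF3 rose (median -0.21), where 11.4% of protein-coding genes (9.22% of all features) were called lower and 7.60% (5.86%) higher. Relative to the summed mRNA 4 fell (ANB1, DED1, TIF2 and EFT2) and 4 rose (HEF3, HCR1, SUI1 and HBS1), against 2.63% lower and 21.2% higher.

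HEF3 densities were 0.102 and 0.111 in WT-CHX and 0.211 and 0.281 in upf1-CHX, a log2 difference of 0.77 (SE 0.12; limma adjusted p = 0.00886) relative to the median mRNA. The groups did not overlap. ANB1 went from 0.562 and 0.680 to 0.371 and 0.500, a change of -0.89 (SE 0.10, limma adjusted p = 0.00456). The count of 19 became 1 without WT-CHX replicate 1, 5 without WT-CHX replicate 2, 10 without upf1-CHX replicate 1 and 4 without upf1-CHX replicate 2. The HEF3 call relative to the median mRNA was lost without WT-CHX replicate 1 or upf1-CHX replicate 2, with limma adjusted p-values of 0.0705 and 0.0678.

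The last comparison asks whether the CHX effect itself differed between upf1 and WT. HEF3 was called lower on all 3 scales, with a difference of CHX effects (upf1 minus WT) of -0.94 (SE 0.16, limma adjusted p = 0.00637) relative to the median mRNA, -1.09 relative to the summed mRNA and -1.12 (SE 0.27, limma adjusted p = 0.0127) on the deposited scale. It was the only one of the 45 called on the deposited scale, where 15.0% of protein-coding genes (25.3% of all features) were called lower. For the scale of the median mRNA, 13.5% of protein-coding genes (21.6% of all features) were called lower and 4.15% (2.46%) higher. The test uses the same DMSO libraries in which HEF3 had the highest upf1 change of the 45, which favours a negative difference.

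The deposited-scale call of HEF3 was lost without upf1-DMSO replicate 2 (limma adjusted p = 0.0548), and the call relative to the median mRNA was kept without each library in turn. TEF1 was called higher relative to the median mRNA alone. Its densities were 28.3 and 30.2 in WT-DMSO, 35.3 and 39.5 in WT-CHX, 30.1 and 34.6 in upf1-DMSO, and 37.9 and 48.3 in upf1-CHX. The difference of 0.38 (SE 0.10, limma adjusted p = 0.0327) lost its call without any single library (limma adjusted p-values of 0.0580 to 0.118), and the value was 0.06 on the deposited scale. HCR1 was called lower relative to the summed mRNA alone, at -0.30 (limma adjusted p = 0.0294), where 21.5% of protein-coding genes were called lower and 0.560% higher.

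Within a gene pair the share of each gene is free of the scale. HEF3 made up 0.0647% and 0.0595% of the summed YEF3 and HEF3 density in WT-DMSO, 0.187% and 0.179% in WT-CHX, 0.275% and 0.315% in upf1-DMSO, and 0.397% and 0.411% in upf1-CHX. No 2 groups overlapped. YEF3, the main eEF3 gene, had densities of 37.8 and 41.3, 54.3 and 62.2, 45.4 and 49.6, and 53.0 and 68.1 in the same order, so HEF3 was under 1% of the pair in every library.

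ANB1 made up 0.384% and 0.364% of the HYP2 and ANB1 density in WT-DMSO, 0.983% and 1.17% in WT-CHX, 0.215% and 0.245% in upf1-DMSO, and 0.609% and 0.698% in upf1-CHX. The share was thus higher with CHX in both strains and lower in upf1 under both treatments, without overlap. HYP2 densities were 33.2 and 36.9, 56.6 and 57.4, 41.4 and 45.3, and 60.5 and 71.1 in the same order of groups.

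DBP1 made up 0.943% and 0.917% of the DED1 and DBP1 density in WT-DMSO and 1.88% and 2.93% in upf1-CHX, with 1.22% to 1.42% in the other groups. DED1, which encodes a helicase that helps the ribosome scan long leaders, had densities of 4.64 and 5.05 in WT-DMSO, 7.80 and 8.17 in WT-CHX, 4.54 and 6.10 in upf1-DMSO, and 6.88 and 6.67 in upf1-CHX. DBP1 had 0.0442 and 0.0467, 0.0962 and 0.117, 0.0656 and 0.0824, and 0.132 and 0.201 in that order. It was called in none of the comparisons relative to either mRNA scale.

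CAM1, the minor eEF1B gamma gene, made up 9.79% to 14.1% of the TEF4 and CAM1 density, and its groups overlapped except that upf1-CHX lay highest. Its densities were 1.90 and 2.11 in WT-DMSO, 2.46 and 3.21 in WT-CHX, 1.65 and 2.42 in upf1-DMSO, and 3.22 and 3.50 in upf1-CHX. TEF4 had 13.5 and 14.9, 20.4 and 21.2, 15.2 and 17.2, and 19.6 and 22.0 in that order.

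In the near-identical pairs TEF2 made up 47.9% to 50.4% of eEF1A density in the 8 libraries, with densities of 29.9 and 35.2 in upf1-DMSO and 37.0 and 44.4 in upf1-CHX. TIF1 made up 54.2% to 56.2% of eIF4A density in the DMSO libraries and 49.5% to 51.8% in the CHX libraries. TIF1 had densities of 5.30 and 5.59 in WT-DMSO, 7.14 and 7.48 in WT-CHX, 5.93 and 5.82 in upf1-DMSO, and 6.67 and 7.45 in upf1-CHX, and TIF2 had 4.32 and 4.72, 7.07 and 7.63, 4.63 and 4.85, and 6.23 and 6.95 in that order. The rise with CHX was thus smaller for TIF1 than for TIF2 in both strains.

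EFT1 made up 39.5% to 41.7% of eEF2 density in the DMSO libraries and 36.1% to 39.2% in the CHX libraries. EFT1 had densities of 3.99 and 4.42 in WT-DMSO and 5.13 and 5.78 in WT-CHX. EFT2 had 6.07 and 6.77 in WT-DMSO, 9.06 and 9.92 in WT-CHX, 6.33 and 6.84 in upf1-DMSO, and 8.05 and 9.25 in upf1-CHX. These shares carry the uncertainty of reads that match both genes.

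**Figure D4:**
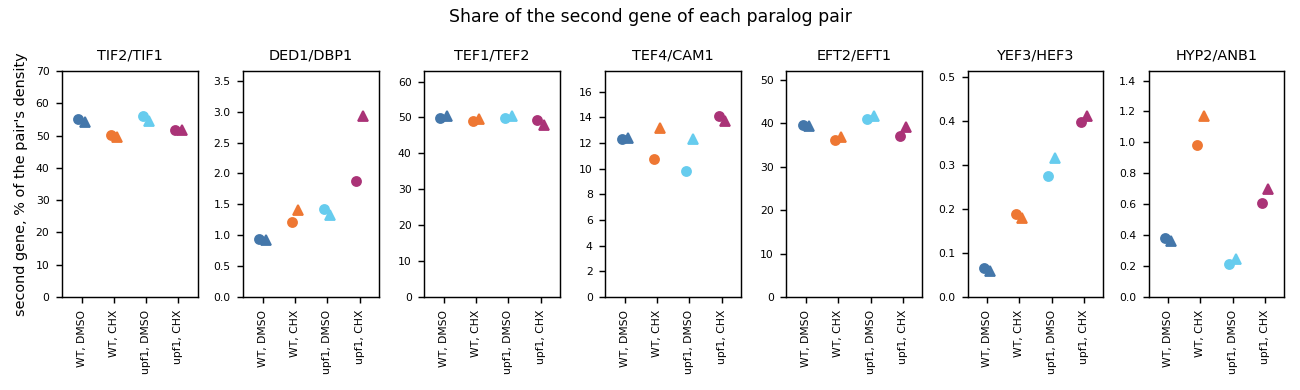
Density of the second-named gene as a percent of its pair, for 7 pairs of genes, in each library (circle, replicate 1; triangle, replicate 2); every axis starts at 0 and has its own height. HEF3 runs from 0.0595 to 0.411% and ANB1 from 0.215 to 1.17% without overlap between groups, while TEF2 stays between 47.9 and 50.4%.

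EFB1 and TEF4 each host a snoRNA in an intron, snR18 and snR38. On the deposited scale, whose reference is the median snoRNA, snR18 fell with CHX in WT, with a log2 difference of -0.35 (SE 0.13; limma adjusted p = 0.0187) and of -0.51 in upf1, and snR38 fell by 0.79 (SE 0.20) in WT and fell in upf1 too (limma adjusted p = 0.000809). Their host genes rose on this scale in both strains and fell relative to the median mRNA. Neither snoRNA was called between upf1 and WT on the deposited scale. With CHX snR38 had few reads, 71 and 52 in WT and 94 and 40 in upf1. The table's lengths of EFB1 (1313 nt) and TEF4 (1841 nt) exceed the annotated genes with their introns (987 and 1565 nt), so intron reads may be part of the host values, which was not tested.

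Across the 45 genes, more abundant mRNAs had lower changes with CHX. With the level taken from libraries outside the comparison (upf1-DMSO), the log2 change with CHX in WT relative to the median mRNA and the log2 level had Pearson r = -0.80 and Spearman rho = -0.80 (n = 45 genes), against r = -0.57 over 5897 protein-coding genes. Without HEF3, ANB1 and DBP1, the 3 lowest genes of upf1-DMSO, r was -0.77 (n = 42). For CHX in upf1, with the level from WT-DMSO, r was -0.73 and rho -0.84, against r = -0.41 over protein-coding genes.

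For upf1 against WT in DMSO, with the level from WT-CHX, r was -0.51 over the 45 genes and -0.42 over protein-coding genes. For upf1-CHX against WT-CHX, with the level from WT-DMSO, it was -0.43 and -0.29. These are correlations across genes, which share libraries, sequencing depth and scaling and are not independent replicates, and they are given as a description. CHX libraries also had more of their reads in protein-coding genes, 88.1% to 89.5% against 83.0% to 84.9% with DMSO, and the part of this in the results was not tested.

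**Figure D5:**
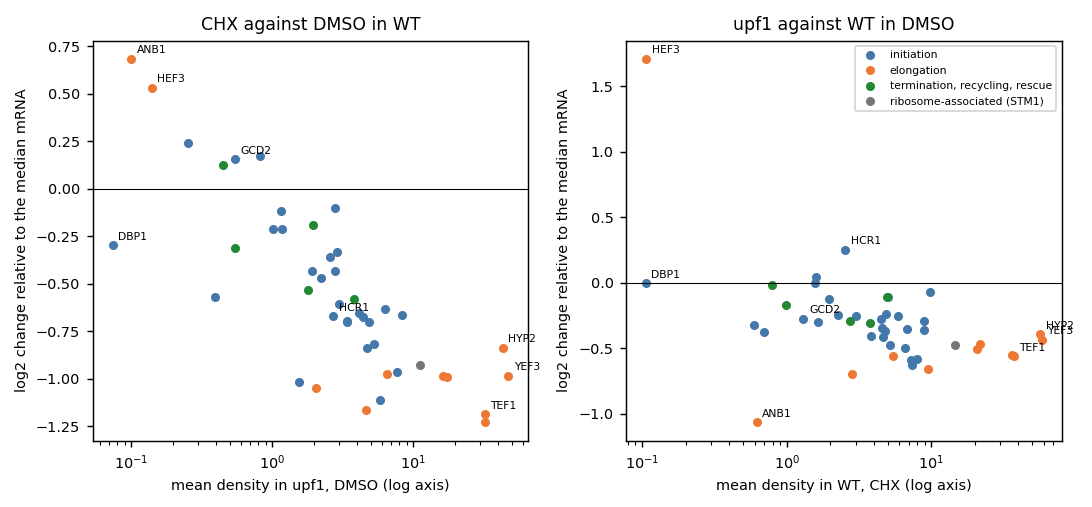
Log2 change relative to the median mRNA against mean density (log axis) in a group outside the comparison, for 45 genes coloured by step of translation: CHX in WT on the left, upf1 against WT in DMSO on the right. On the left the points fall from ANB1 (0.68) and HEF3 (0.53) to TEF2 (-1.23); on the right HEF3 (1.71) and ANB1 (-1.07) stand apart.

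Other genes of translation were read from whole lists. With CHX in WT, 22 of 22 cytosolic aminoacyl-tRNA synthetase genes fell relative to the median mRNA (median log2 change -0.77), from GUS1 (glutamyl-tRNA synthetase) at -1.12 to GLN4 (glutaminyl) at -0.37, and 127 of 137 ribosomal protein genes (median -0.72). On that scale 30.7% of protein-coding genes (18.9% of all features) were called lower and 34.9% (44.1%) higher. Relative to the summed mRNA the synthetase and ribosomal protein counts were 11 and 44, against 6.46% of protein-coding genes called lower. Of 7 genes that act on nascent chains 6 fell, SSZ1 (a ribosome-bound Hsp70) lowest at -1.09, and BTT1, a minor subunit gene of the nascent polypeptide-associated complex, rose by 0.55.

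In 25 further translation genes 13 fell and 4 rose with CHX in WT relative to the median mRNA (median -0.27), from MBF1, a bridging factor of transcription that also binds stalled ribosomes, at -1.22 to ITT1 at 0.73. TIF4631, the major eIF4G gene, went from 1.39 and 1.48 in WT-DMSO to 2.80 and 3.18 in WT-CHX, a log2 change of -0.48 (SE 0.08), close to -0.57 for TIF4632. In 16 genes that modify translation factors 6 fell and 2 rose (median -0.10). They ran from DYS1, which serves hypusine synthesis on eIF5A, at -0.97 to KTI11, which serves diphthamide synthesis on eEF2, at 1.05. In 8 mitochondrial translation factor genes 3 fell and 3 rose (median -0.01). For all 3 lists these counts stand against 30.7% of protein-coding genes called lower and 34.9% higher (18.9% and 44.1% of all features). The counts lower in the last 2 lists were near that share of protein-coding genes. On the summed scale these 3 lists had 1, 1 and 2 genes lower, against 6.46% of protein-coding genes. They had 16, 11 and 6 higher, near the 71.5% of protein-coding genes called higher on that scale.

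In upf1-DMSO against WT-DMSO, 13 of 22 synthetase genes, 130 of 137 ribosomal protein genes and 6 of 7 nascent chain genes fell relative to the median mRNA, against 0, 30 and 0 relative to the summed mRNA. Of protein-coding genes 31.4% (20.7% of all features) were called lower relative to the median mRNA and 4.04% relative to the summed mRNA. ITT1 at 1.22 (SE 0.09, limma adjusted p = 2.9e-05), KTI11 at 1.08 (SE 0.11) and BTT1 at 0.62 (SE 0.13) rose, each the highest of its list. The difference of CHX effects was -0.50, -1.02 and -0.78 for ITT1, KTI11 and BTT1 (limma adjusted p = 0.0251, 0.00388 and 0.0219) and 0.50 for MBF1 (limma adjusted p = 0.0168). It uses the same DMSO libraries in which the first 3 genes were named for a high value in upf1, which favours a negative difference. MBF1 was named for the lowest change of its list with CHX in WT. The difference subtracts that change, which favours a positive value.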

How the data were processed

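Per the labels' protocols, total RNA was mixed with an external standard, depleted of rRNA and made into strand-specific libraries. The authors deposited a signal: reads per feature divided by feature length and a library factor. The sources used here do not give the normalizing step. The submitters' processing notes name Trim Galore, HISAT2 2.2.0, featureCounts 2.0.0, DESeq2 and build R64. Densities of all 11986 features above 0 were whole multiples of 1 read within 0.001 reads, which gave reads per gene. For 413 features these reads were multiplied by a whole number to fit the feature length. Features with a mean density under the pseudocount (the 5th percentile of values above 0) were left out (293). The other 11700 entered 1 model of all 8 libraries in limma 3.58.1 (R 4.3.3) with 4 residual degrees of freedom and a mean-variance trend. The fit was run on data simulated from WT-DMSO means, with equal spread in all groups and a minority of features changed. Unequal spread between groups and a shift of most features were not simulated. Alternatives are given in the closing section. Replicates differed by more than counting noise in every group, so none was merged. Chi-square per feature was 3.62 in WT-DMSO and 4.17 in WT-CHX, but 16.1 in upf1-DMSO and 12.1 in upf1-CHX. With 2 replicates a group, precision rests on a spread pooled over all groups, which takes them as equally variable.

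The rule for members uses no measured value, but members and lists were chosen with earlier results of these data known. Values in every library are given for gene pairs and for genes with the highest or lowest change relative to the median mRNA or called in the difference of CHX effects; of other lists the genes at either end are named. EAP1, HCR1, SUI1, GCN3 and TIF4631 were added after their values were seen. Promoters were 500 bases before the start codon.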

Additional observations from a re-analysis of the deposited data

Results flagged for a closer look

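By limma's test of the difference itself, the log2 CHX effect on HEF3 differed between upf1 and WT. The difference was -1.12 on the deposited scale and -0.94 relative to the median mRNA. On the deposited scale HEF3 rose in all CHX libraries. The fold was larger in WT (mean density 0.0245 to 0.107) than in upf1 (0.141 to 0.246). Over the alternatives the adjusted p ran from 1.8e-05 to 0.232 on the deposited scale and from 0.000232 to 0.0283 relative to the median mRNA. The CHX effect on TEF1 differed by 0.38 relative to the median mRNA by the same test, with adjusted p-values from 0.00539 to 0.212 over the alternatives. What lies behind these differences was not tested.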

How the results depend on the processing

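Counts are of the 45 genes called higher and lower by limma. Scaling to the summed mRNA instead of the median mRNA gave 15 and 14 for CHX in WT, 9 and 16 for CHX in upf1, 9 and 3 for upf1 in DMSO, 4 and 4 for upf1 in CHX, and 0 and 2 for the difference of CHX effects. Under it 51 single changes that were called on neither of these 2 scales reversed in sign, by construction of the scale. So did 45 that were called on either or both. With CHX in WT they became GCD1 0.38, GCD6 0.38, GCD7 0.48, HBS1 0.28, NIP1 0.49, PRT1 0.26, RLI1 0.40, RPG1 0.16, SUI2 0.16, SUP35 0.064, SUP45 0.015, TIF35 0.13, TIF4632 0.020 and TIF5 0.23. With CHX in upf1 they became GCD7 0.35, NIP1 0.30, PRT1 0.26, RLI1 0.24, SUI2 0.0083, SUP35 0.14, TIF4632 0.038 and TIF5 0.13. In upf1 with DMSO they became CDC33 0.12, EAP1 0.030, GCD1 0.29, GCD11 0.13, GCD2 0.13, GCD6 0.41, GCD7 0.17, HBS1 0.39, HYP2 0.019, NIP1 0.30, PAB1 0.052, PRT1 0.17, RLI1 0.10, RPG1 0.16, SUI1 0.34, SUI2 0.045, SUI3 0.16, SUP35 0.12, SUP45 0.30, TIF11 0.061, TIF35 0.0070, TIF4632 0.085 and TIF5 0.067.

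Relative to the median mRNA, fitting only the groups compared gave 1 higher for CHX in upf1 and 11 lower for upf1 in CHX. Without the mean-variance trend 0 were higher in the difference and 7 lower for upf1 in CHX, and on the deposited scale 1 was higher for upf1 in CHX and 13 for upf1 in DMSO. A pseudocount divided by 10 gave 2 higher in the difference relative to the median mRNA, and one multiplied by 10 gave 0 lower on the deposited scale. Voom on recovered reads gave 3 higher in the difference relative to the median mRNA, and 7 higher and 1 lower for upf1 in CHX on the deposited scale.

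Between groups, the log2 deviations of same-numbered libraries from their group means correlated at 0.023 to 0.335, over the more abundant protein-coding genes. The labels name nothing that a number shares and 1 of the 6 correlations was near 0, so the numbers were not taken as pairs, which these values do not settle. With the replicate block 3 genes were higher in the difference relative to the median mRNA. On the deposited scale the replicate block gave 2 lower in the difference, 13 higher and 1 lower for upf1 in CHX, and 35 higher and 1 lower for upf1 in DMSO.

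Leaving out 1 library at a time, relative to the median mRNA, gave 2 to 3 higher and 31 to 34 lower for CHX in WT, 1 to 2 and 26 to 31 for CHX in upf1, 1 to 2 and 25 to 33 for upf1 in DMSO, 0 to 1 and 1 to 17 for upf1 in CHX, and 0 to 2 and 1 to 1 for the difference. On the deposited scale 39 to 45, 32 to 44, 3 to 28 and 0 to 16 were higher in the first 4, with 0 lower, and 0 to 1 were lower in the difference. For upf1 in CHX on that scale 3 higher became 16 without upf1-CHX replicate 1, 0 without upf1-CHX replicate 2, and 1 without either library of WT-CHX or of WT-DMSO. The model of all 8 libraries rests on 4 residual degrees of freedom and fits with fewer libraries on fewer, where a group's lone library is assumed to vary like the others. ANB1 had as few as 82 reads in a library and HEF3 as few as 85.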
